A study of Macaca mulatta with 4 samples.

Results

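The genes described here encode the aminoacyl-tRNA synthetases of the cytosol and the enzymes that make serine, asparagine, proline and cysteine or carry folate-bound carbon units. They were chosen by name, as 34 gene symbols, with earlier results of these data known. Each was looked up by Ensembl macaque gene identifier in a table of 21314 genes. An identifier in the table was found for 32 of the 34. WARS1 and PSPH were not analysed here. The 4 RNA libraries came from morulae of Macaca mulatta, the rhesus macaque, 2 from GG embryos and 2 from AG embryos, in a study of genomic imprinting before implantation. GG is read as gynogenetic, with nuclear chromosomes of maternal origin only, and AG as androgenetic, with nuclear chromosomes of paternal origin only. The labels give no strain, age or treatment, and do not make clear how many embryos a tube held or whether the replicates had different parents. A p-value here is set against the spread between these libraries alone, part of which may be technical.

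A synthetase loads its amino acid onto the matching transfer RNA, the step that supplies the ribosome. In human and mouse cells, a shortage of an amino acid leaves uncharged transfer RNA, which activates the kinase GCN2 (gene EIF2AK4). That lowers translation in general but raises translation of the transcription factor ATF4, and ATF4 with its C/EBP partners then raises transcription of asparagine synthetase, the serine pathway, mitochondrial folate enzymes and many cytosolic synthetases. A preimplantation embryo draws on RNA and protein left by the oocyte as well as on its own transcription, so a level in these libraries is RNA present, not RNA being made. In such bulk samples, fewer cells of a type and less RNA per cell cannot be told apart.

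Libraries held 21335918 and 29733977 estimated reads in GG replicates 1 and 2, and 14129608 and 19108735 in AG replicates 1 and 2. Levels are given in CPM, counts per 1000000 counts of the scaled library total. They are not divided by transcript length, so they compare libraries for 1 gene and not genes with each other. Of 12 listed markers of early embryos, 8 were matched and tested. By the threshold given below, edgeR called 2 higher and 3 lower in GG, or 62.5% against 12.9% of all tested genes. The 8 included POU5F1, the pluripotency factor, which was not called, at 465 and 479 CPM in GG against 181 and 389 CPM in AG. ZSCAN4, a gene of the embryonic genome activation wave, was at 3.23 and 1.33 CPM in GG against 1325 and 1024 CPM in AG. KLF17 was at 2.37 and 0.614 CPM in GG against 34.2 and 21.4 CPM in AG, and DPPA4 at 15.8 and 12.2 CPM in GG against 62.8 and 47.9 CPM in AG. The 2 called higher in GG were DPPA2 and TFCP2L1. DPPA2 was at 488 and 820 CPM in GG against 101 and 28.4 CPM in AG, and TFCP2L1 at 15.2 and 16.8 CPM in GG against 1.14 and 1.17 CPM in AG. NANOG was at 129 and 141 CPM in GG against 151 and 25.0 CPM in AG, and TFAP2C at 48.1 and 61.7 CPM in GG against 104 and 110 CPM in AG. Genes of cumulus cells, sperm and blood were scanned as signs of other cells. Over 10 matched cumulus genes the summed level was 15.8 and 40.3 CPM in GG against 6.98 and 16.6 CPM in AG, with FSHR at 0 counts in all 4 libraries. Over 7 sperm genes it was at most 1.07 CPM in any library, and the protamine gene PRM2 had 0 counts in all 4. Over 7 blood genes it was 14.8 and 18.3 CPM in GG against 155 and 68.3 CPM in AG, most of the AG sum being PTPRC. The part of any of these markers in the differences below was not tested.

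The members did not move as 1 block between GG and AG. Of 31 tested, 6 passed the threshold, an adjusted p under 0.05 in edgeR's quasi-likelihood test over all 13227 tested genes. Lower in GG were MTHFD2 and CTH, of mitochondrial folate metabolism and cysteine synthesis, and the synthetase genes MARS1 and SARS1. Higher in GG were MTHFD1, of cytosolic folate metabolism, and ALDH18A1, of proline synthesis. The share called among all tested genes was 12.9% (6.34% higher and 6.58% lower in GG), against 19.4% of the members. The median log2 fold change, GG minus AG, was -0.17 over the tested members and 0.04 over all tested genes. The larger feature of these genes was a split within AG. AG replicate 2 stood above AG replicate 1 in 28 of the 31 tested members, against 53.1% of all tested genes. The calls below are therefore given with each AG library left out wherever that ends or adds a call.

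Most cytosolic synthetase genes were not called between the groups, which with 2 libraries each does not show that levels were alike. Of 19 named, 18 were tested, 2 were lower in GG and 16 were not called. The called share was 11.1%, against 12.9% of all tested genes called in either direction and 6.58% called lower. MARS1 (ENSMMUG00000011277), which charges methionine, was at 83.1 and 90.5 CPM in GG replicates 1 and 2 against 484 and 256 CPM in AG replicates 1 and 2. Both GG libraries lay below both AG libraries, and AG replicate 1 was the highest. The log2 fold change was -2.09 ± 0.37 (SE, n = 2 each; edgeR adjusted p = 0.0280), a 4.26-fold lower level in GG. SARS1 (ENSMMUG00000021837), which charges serine, was at 163 and 180 CPM in GG against 435 and 741 CPM in AG. The groups again did not overlap, with a log2 fold change of -1.78 ± 0.32 (edgeR adjusted p = 0.0294), 3.43-fold lower in GG. Both genes kept their call when either AG library was left out.

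AARS1, HARS1 and QARS1, which charge alanine, histidine and glutamine, also had both GG libraries below both AG libraries. They did not pass edgeR's test over all 4 libraries. AARS1 was at 25.9 and 31.6 CPM in GG against 51.2 and 78.6 CPM in AG (log2 fold change -1.17 ± 0.35, edgeR adjusted p = 0.0821; DESeq2 adjusted p = 0.0222). HARS1 was at 166 and 147 CPM in GG against 219 and 225 CPM in AG, and QARS1 at 58.6 and 66.7 CPM in GG against 76.5 and 139 CPM in AG. Without AG replicate 1 the log2 fold changes of AARS1 and QARS1 were -1.45 and -1.15, with the calls of that fit given below. In the other direction, FARSA, KARS1 and LARS1 had both GG libraries above both AG libraries, by log2 differences of 0.14, 0.53 and 0.26 that did not pass. FARSA encodes a subunit of the phenylalanine enzyme, KARS1 serves cytosol and mitochondria alike in charging lysine, and LARS1 charges leucine. Among all tested genes, both GG libraries lay below both AG libraries in 30.7% and above them in 33.4%, so the 5 and 3 of 18 synthetase genes without overlap are no more than the general rate.

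The remaining 10 synthetase genes overlapped between groups, and in each the AG libraries lay further apart than the GG libraries. GARS1, which charges glycine in cytosol and mitochondria, was at 72.2 and 66.8 CPM in GG against 40.0 and 272 CPM in AG, so AG replicate 1 lay below both GG libraries and AG replicate 2 above both. CARS1, which charges cysteine, was at 32.6 and 46.0 CPM in GG against 10.2 and 51.0 CPM in AG. VARS1, which charges valine, was at 22.5 and 20.8 CPM in GG against 9.40 and 35.1 CPM in AG. The same order held for the threonine gene TARS1, at 251 and 287 CPM in GG against 117 and 301 CPM in AG, and for the bifunctional glutamate and proline gene EPRS1, at 419 and 399 CPM in GG against 297 and 573 CPM in AG. IARS1 and YARS1, which charge isoleucine and tyrosine, had AG replicate 2 about 2-fold above the rest. IARS1 was at 253 and 248 CPM in GG against 222 and 484 CPM in AG, and YARS1 at 172 and 166 CPM in GG against 164 and 358 CPM in AG. FARSB, NARS1 and RARS1, for phenylalanine, asparagine and arginine, had log2 fold changes of 0.18, -0.32 and 0.21. None of these 10 was called with edgeR over all 4 libraries, and by DESeq2 their adjusted p values ran from 0.269 upward. Without AG replicate 1 the log2 fold changes of GARS1, IARS1 and YARS1 were -1.97, -0.95 and -1.08. Without AG replicate 2 those of CARS1 and TARS1 were 1.92 and 1.18. The calls added in those fits are given below.

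**Figure D1:**
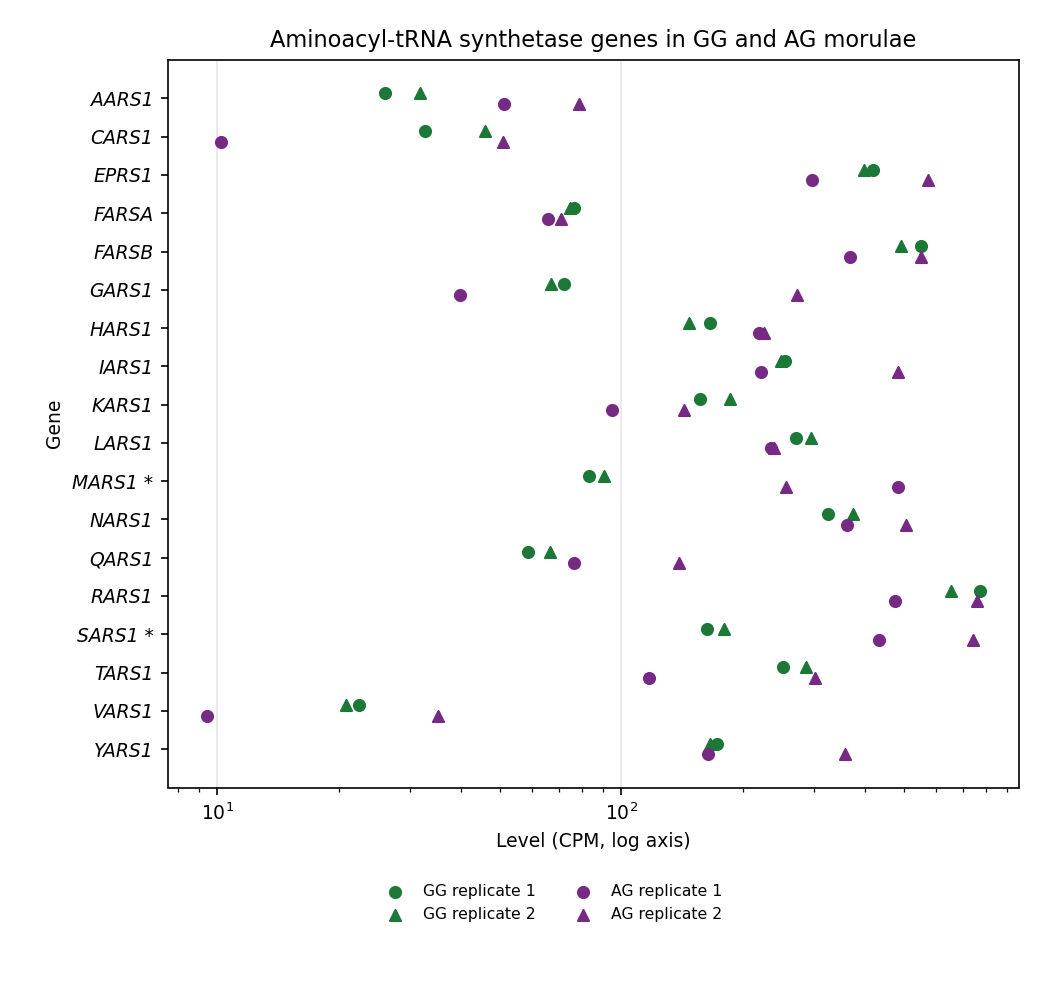
Levels of the 18 cytosolic synthetase genes in each library, in CPM on a log axis, with GG in green and AG in purple, replicate 1 as circles and replicate 2 as triangles. Asterisks mark MARS1 and SARS1, called lower in GG, and the green pairs lie close together while the purple pairs of genes such as CARS1 and GARS1 lie far apart.

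The asparagine and serine synthesis genes were high in 1 library, AG replicate 2. PSAT1 (ENSMMUG00000011868), the aminotransferase that performs the middle step of serine synthesis, was at 14.1 and 10.9 CPM in GG against 22.2 and 608 CPM in AG. AG replicate 2 was thus 27.4-fold above AG replicate 1, which was itself above both GG libraries. ASNS (ENSMMUG00000019157), which makes asparagine from aspartate and glutamine, was at 13.6 and 22.7 CPM in GG against 25.2 and 228 CPM in AG, a 9.02-fold gap between the AG libraries. PHGDH (ENSMMUG00000023089), the dehydrogenase that starts the serine pathway, had 9 and 17 counts in GG, or 0.427 and 0.580 CPM, against 0 counts and 214 counts in AG, the second being 10.9 CPM. A count of 0 in AG replicate 1 allows up to 0.214 CPM at 3 counts, counting error only.

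With the filter on low counts none of these genes passed edgeR's test over 4 libraries. Without that filter edgeR called PSAT1 (adjusted p = 0.00994) and ASNS (adjusted p = 0.0252) lower in GG, among 14.3% of all genes called. Both also passed with DESeq2, which called 23.3% of all genes it tested. PSAT1 had a log2 fold change of -4.65 ± 1.44 (edgeR adjusted p = 0.0877; DESeq2 adjusted p = 0.0319). ASNS had one of -2.80 ± 0.99 (edgeR adjusted p = 0.118; DESeq2 adjusted p = 0.00446), and PHGDH one of -3.42 ± 1.93 (adjusted p = 0.283; DESeq2 adjusted p = 0.133). Without AG replicate 1, all 3 were called lower in GG, PSAT1 by -5.60 (edgeR adjusted p = 0.00125), ASNS by -3.65 (adjusted p = 0.00459) and PHGDH by -4.41 (adjusted p = 0.0109). Without AG replicate 2, PSAT1 and ASNS stood at -0.85 (edgeR adjusted p = 0.138) and -0.49 (adjusted p = 0.434) and were not called, and PHGDH, with 0 counts left in AG, was not called either (adjusted p = 0.0951). Such fits take the lone AG library to vary like the GG pair.

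**Figure D2:**
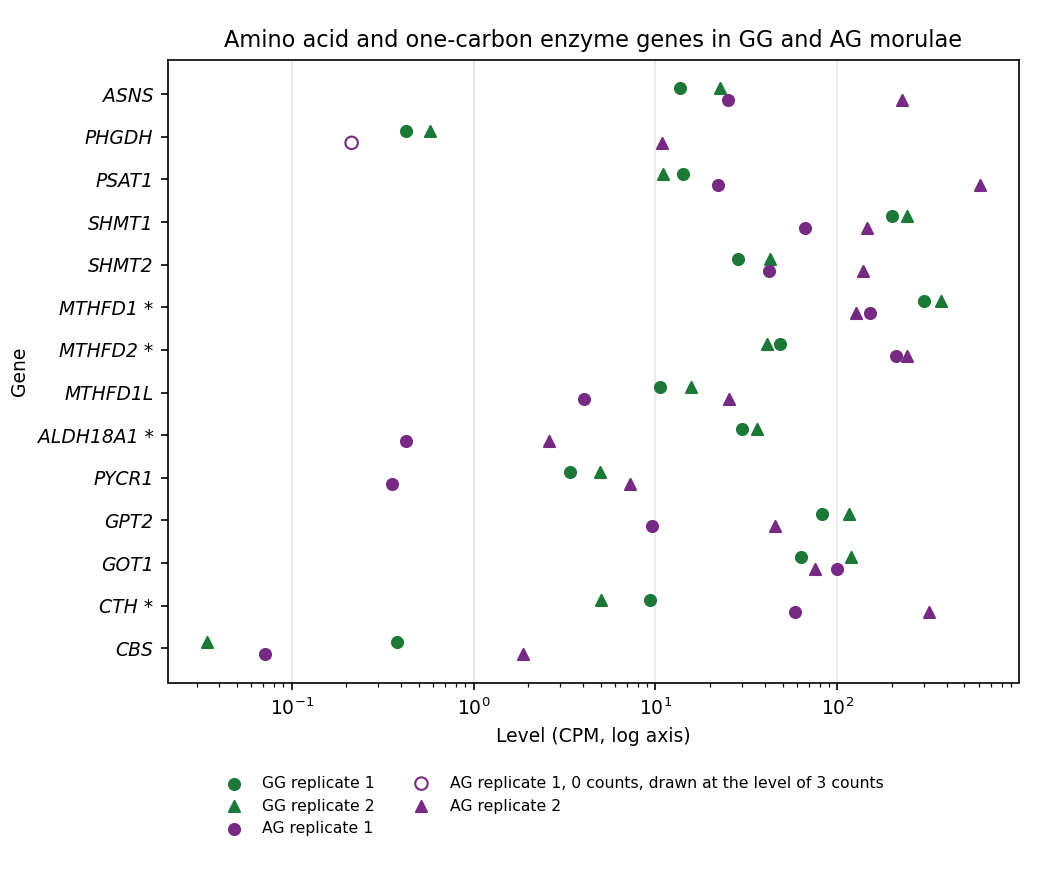
Levels of the 14 amino acid and folate enzyme genes in each library, in CPM on a log axis, with GG in green and AG in purple, replicate 1 as circles and replicate 2 as triangles. Asterisks mark the 4 called genes, MTHFD1, MTHFD2, ALDH18A1 and CTH, the open circle is PHGDH in AG replicate 1 at 0 counts, and PSAT1 and ASNS in AG replicate 2 stand at 608 and 228 CPM, far from the other libraries.

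Of 5 folate enzymes among the members, mitochondrial MTHFD2 was lower in GG, cytosolic MTHFD1 was higher, and SHMT1, SHMT2 and MTHFD1L were not called. Cells run folate reactions in mitochondria, where serine is broken down to formate, and in the cytosol, where formate is put to use in making nucleotides. MTHFD2 (ENSMMUG00000009739), the mitochondrial dehydrogenase, was at 48.5 and 40.9 CPM in GG against 210 and 241 CPM in AG. The replicates of each group were close and the groups did not overlap. The log2 fold change was -2.33 ± 0.27 (SE, n = 2 each; edgeR adjusted p = 0.0130), 5.04-fold lower in GG, and leaving out either AG library moved it only to -2.43 or -2.26. MTHFD1 (ENSMMUG00000001319), the trifunctional cytosolic enzyme of the pathway, was at 299 and 370 CPM in GG against 152 and 126 CPM in AG. Its log2 fold change was 1.27 ± 0.25 (edgeR adjusted p = 0.0360), 2.41-fold higher in GG.

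The serine hydroxymethyltransferases, which pass a carbon unit from serine to folate, lay the same way without passing the test. Cytosolic SHMT1 was at 199 and 241 CPM in GG against 66.2 and 146 CPM in AG, with GG above AG in every pairing (log2 fold change 1.05 ± 0.42, edgeR adjusted p = 0.150). It was called higher in GG without AG replicate 2 (log2 fold change 1.71, adjusted p = 0.00815). Mitochondrial SHMT2 was at 28.4 and 42.7 CPM in GG against 42.0 and 138 CPM in AG (log2 fold change -1.34 ± 0.60, edgeR adjusted p = 0.189). It was called lower in GG without AG replicate 1 (log2 fold change -1.96, adjusted p = 0.0162), and without AG replicate 2 stood at -0.26. MTHFD1L, which releases formate in mitochondria, did not follow MTHFD2. It was at 10.6 and 15.7 CPM in GG against 4.06 and 25.3 CPM in AG, a 6.24-fold gap within AG.

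Ratios of reads within a library do not depend on scaling between libraries, and the 3 pairs of a cytosolic with a mitochondrial gene given here were chosen after values were seen. The count ratio of SHMT1 to SHMT2 was 7.01 and 5.65 in GG against 1.58 and 1.05 in AG, a mean of 6.33 ± 0.963 in GG and 1.32 ± 0.369 in AG (SD, n = 2 each). The count ratio of MTHFD1 to MTHFD2 was 6.17 and 9.06 in GG against 0.721 and 0.525 in AG, a mean of 7.61 ± 2.04 in GG and 0.623 ± 0.139 in AG. The count ratio of MTHFD1 to MTHFD1L was 28.3 and 23.7 in GG against 37.3 and 4.99 in AG. The first 2 ratios did not overlap between groups and the MTHFD1 to MTHFD1L ratio did. MTHFD1 was higher and MTHFD2 lower in GG without overlap, so the separation of their ratio was fixed by those levels and adds no support. The SHMT1 to SHMT2 ratio is likewise built from levels already given, of genes that edgeR did not call over all libraries, and adds none either. An exact permutation test of 2 against 2 libraries cannot go below a two-sided p of 0.333. Since transcript lengths differ, a ratio above or below 1 says nothing of which enzyme is more abundant.

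**Figure D3:**
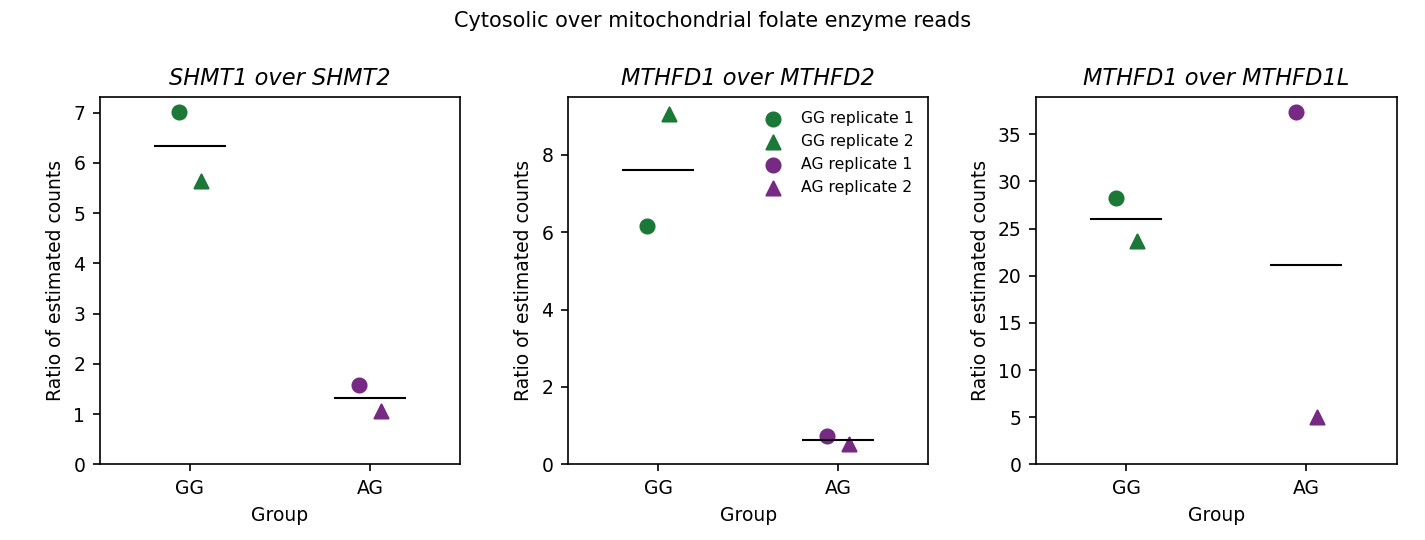
Ratio of estimated counts of the cytosolic to the mitochondrial enzyme gene in each library, for SHMT1 over SHMT2, MTHFD1 over MTHFD2 and MTHFD1 over MTHFD1L, with GG left and AG right and the mean of each group as a line. In the first 2 panels the GG ratios lie between 5.65 and 9.06 and the AG ratios between 0.525 and 1.58, and in the third panel the AG ratios of 37.3 and 4.99 lie on either side of the GG ratios.

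Proline synthesis held the member furthest above AG in GG. ALDH18A1 (ENSMMUG00000003102), which turns glutamate into the precursor of proline, was at 29.8 and 36.3 CPM in GG against 0.427 and 2.59 CPM in AG, from 627 and 1066 counts in GG and 6 and 51 counts in AG. Every GG value exceeded every AG value, with a log2 fold change of 4.41 ± 0.83 (SE, n = 2 each; edgeR adjusted p = 0.0317), 21.3-fold higher in GG. Without AG replicate 1 the log2 fold change was 3.67, and without AG replicate 2 it was 6.23. PYCR1, which completes proline, was at 3.37 and 4.98 CPM in GG against 0.356 and 7.21 CPM in AG and was not called (log2 fold change 0.13 ± 1.19, edgeR adjusted p = 0.951). Its AG libraries differed 20.2-fold, and it was called higher in GG without AG replicate 2 (log2 fold change 3.51, adjusted p = 0.0344).

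Cysteine synthesis held the member furthest below. CTH (ENSMMUG00000019326), cystathionine gamma-lyase, which releases cysteine, was at 9.31 and 5.05 CPM in GG against 58.5 and 320 CPM in AG. Both AG libraries were above both GG libraries, and AG replicate 2 was 5.48-fold above AG replicate 1. The log2 fold change was -4.72 ± 0.91 (SE, n = 2 each; edgeR adjusted p = 0.0328), 26.4-fold lower in GG, and it was -5.49 without AG replicate 1 and -3.07 without AG replicate 2. CBS, which performs the step before CTH, was too low to test, with 8 and 1 counts in GG against 1 and 37 counts in AG.

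The transaminases, which exchange amino groups between amino acids and keto acids, were not called. GPT2, the mitochondrial alanine enzyme, was at 82.2 and 116 CPM in GG against 9.62 and 45.2 CPM in AG, without overlap (log2 fold change 1.85 ± 0.72, edgeR adjusted p = 0.144). It passed with DESeq2 (adjusted p = 0.0262), with the replicate number as a block in edgeR (adjusted p = 0.0479) and without AG replicate 2 in edgeR (log2 fold change 3.34, adjusted p = 0.00374). GOT1, the cytosolic aspartate enzyme, was at 62.8 and 119 CPM in GG against 99.2 and 75.8 CPM in AG, with overlapping groups and a log2 fold change of 0.05 ± 0.39.

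The spread between the AG libraries ran unevenly across the members and was not theirs alone. On the scale of log2(CPM + 0.5), AG replicate 2 minus AG replicate 1 had a median of 1.12 over the 31 tested members and 0.06 over all tested genes. AG replicate 2 was more than 2-fold above AG replicate 1 in 16 of the 31, against 13.9% of all tested genes, and AG replicate 1 was more than 2-fold above AG replicate 2 in 0 of the 31, against 10.5% of all tested genes. Among genes with a mean of at least 10 CPM, the count was 14 of 29 members against 11.6%. In GG, 0 of 31 members differed more than 2-fold between replicates in either direction, the differences running from -0.82 to 0.91, while 5.99% of all tested genes were more than 2-fold higher in replicate 2 and 4.59% in replicate 1. AG replicate 2 was past 2-fold above AG replicate 1 in 6 of 18 cytosolic synthetases (median 0.72) and 10 of 13 other members (median 2.18). Among lists given below, it was so in 6 of 11 amino acid transporters and 6 of 13 stress response genes. It was so in 5 of 20 genes of the mitochondrial synthetase list and 1 of 5 partners. It was so in 2 of 15 other folate and methionine enzymes and 2 of 14 other amino acid enzymes. These are differences between single libraries, in genes chosen with earlier results of these data known, given as a description with no test. Only MARS1, MTHFD1 and GOT1 were higher in AG replicate 1 than in AG replicate 2. All 32 matched members together took 0.461% and 0.478% of the reads in GG replicates 1 and 2, and 0.439% and 0.799% in AG replicates 1 and 2.

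**Figure D4:**
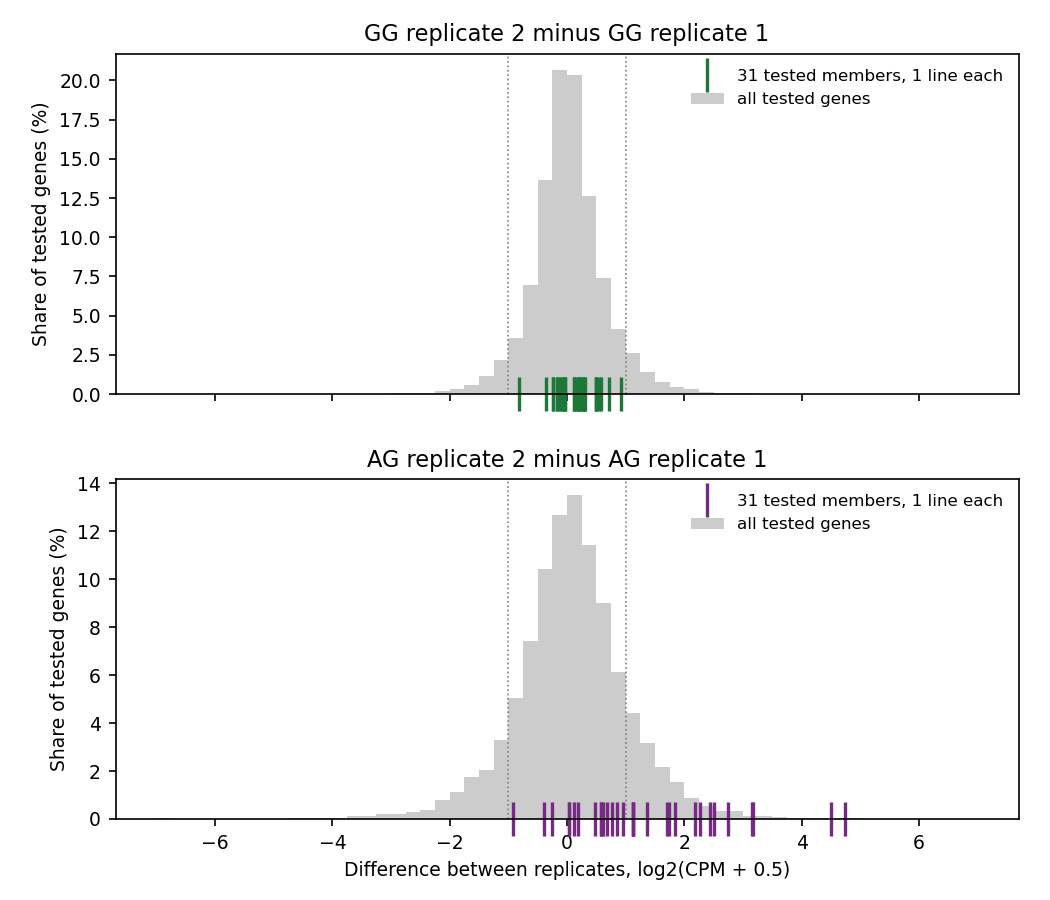
Difference between replicate 2 and replicate 1 on the log2(CPM + 0.5) scale, with GG above and AG below. Grey bars give the share of all tested genes in each interval, coloured lines the 31 tested members, and dotted lines a 2-fold difference. The GG lines lie within -0.82 to 0.91, and 16 AG lines lie beyond the 2-fold line on the side of AG replicate 2.

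What the comparison calls therefore depended on which AG library stood for the group. Without AG replicate 1, 15 of 31 members were called, 13 lower and 2 higher in GG, where 8.54% and 9.03% of all tested genes were called lower and higher. The 9 added were AARS1, GARS1, IARS1, QARS1, YARS1, ASNS, PHGDH, PSAT1 and SHMT2, all lower in GG. Without AG replicate 2, 11 were called, 4 lower and 7 higher in GG, against 14% and 15.8% of all tested genes. The 5 added were CARS1, TARS1, SHMT1, PYCR1 and GPT2, all higher in GG. MARS1, SARS1, MTHFD2 and CTH remained lower and MTHFD1 and ALDH18A1 higher in both fits. Without GG replicate 1 or GG replicate 2, with the spread taken from AG alone, edgeR called 0 members, with 6 and 5 at an unadjusted p under 0.05, and 0.907% and 0.522% of all tested genes were called.

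**Figure D5:**
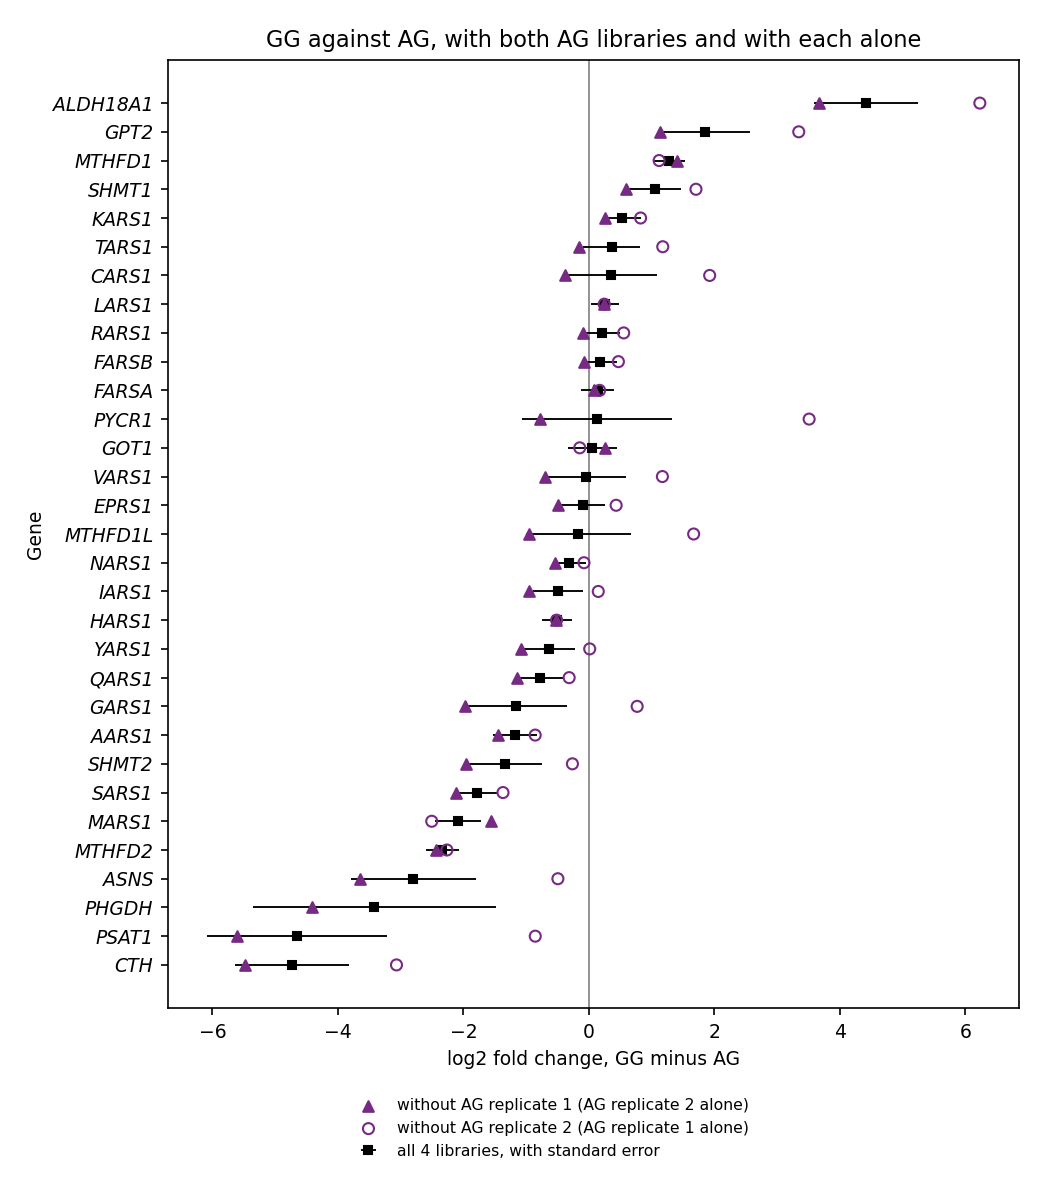
Log2 fold change, GG minus AG, of the 31 tested members over all 4 libraries (squares, bars give the standard error) and with 1 AG library left out. Filled triangles use AG replicate 2 alone and lie mostly left of the squares, open circles use AG replicate 1 alone and lie mostly right of them, and the symbols of MTHFD1, MTHFD2, LARS1 and HARS1 lie almost together; PHGDH has no open circle because AG replicate 1 had 0 counts.

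Other genes of the same supply lines were read from lists. Mitochondrial synthetases, encoded by separate nuclear genes, were set beside the cytosolic ones. Their list also held QRSL1, GATB and GATC, which are not synthetases but subunits of the complex that makes glutamine-charged transfer RNA in mitochondria. All 20 listed genes were tested and 1, higher in GG, was called, or 5% against 12.9% of all tested genes. Of their log2 fold changes 15 were positive, with a median of 0.53. Over all tested genes 6760 of 13227 were positive, with a median of 0.04. The gene called was GATB, so none of the synthetases proper was called. GATB was at 54.3 and 54.8 CPM in GG against 20.1 and 21.8 CPM in AG (log2 fold change 1.38 ± 0.30, edgeR adjusted p = 0.0413). Its call was lost with the replicate number as a block (edgeR adjusted p = 0.0536). Without AG replicate 2, 8 of these 20 were called higher in GG and 0 lower, where 15.8% of all tested genes were called higher. By DESeq2 2 were called higher and 1 lower, where it called 11.3% and 11.9% of all genes it tested. AG replicate 2 was more than 2-fold above AG replicate 1 in 5 of these 20. Of 5 tested partners of the synthetases, edgeR and DESeq2 each called 0, and edgeR gave 0 an unadjusted p under 0.05, while 2 were called higher in GG without AG replicate 2. The scaffold genes AIMP1 and AIMP2, chosen after their values were seen, were at 297 and 262 CPM and 566 and 519 CPM in GG against 222 and 242 CPM and 424 and 407 CPM in AG.

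Amino acid transporters moved both ways, with 3 of 11 tested lower in GG and 2 higher, against 6.58% and 6.34% of all tested genes. The median log2 fold change of the 11 was -0.99 over all libraries, -1.29 without AG replicate 1 and 3.39 without AG replicate 2, where some had 0 counts left in AG. Without either GG library the calls were lost, as were most calls over all tested genes. SLC1A5, a glutamine carrier, was at 6.13 and 6.07 CPM in GG against 38.5 and 58.8 CPM in AG (log2 fold change -3.00 ± 0.39, edgeR adjusted p = 0.0162). SLC38A1, another glutamine carrier, had 1 count in GG over both libraries against 68 and 416 counts in AG, a ratio of AG to GG of 723 (95% counting interval 129 to 28617). SLC7A6 fell as well, at 5.08 and 3.61 CPM in GG against 20.4 and 28.6 CPM in AG. The arginine and lysine carrier SLC7A3 rose, at 22.1 and 64.8 CPM in GG against 1.71 and 4.72 CPM in AG (log2 fold change 3.74 ± 0.77, adjusted p = 0.0371). The last call, chosen after its values were seen, was SLC36A1, a lysosomal exporter, at 5.37 and 5.39 CPM in GG against 0.499 and 0.102 CPM in AG.

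Among other folate and methionine enzymes, 2 of 15 tested were higher in GG, where 6.34% of all tested genes were, and 13 were not called. With the replicate number as a block 1 was called higher, where 6.61% of all tested genes were. The median log2 fold change of the 15 was 0.09 over all libraries, -0.07 without AG replicate 1 and 0.27 without AG replicate 2. Calls changed with the library left out, as did the share over all tested genes, and were lost without either GG library. The 2 genes called over all libraries belong to the glycine cleavage system, which feeds carbon from glycine into mitochondrial folate. DLD, whose product also serves pyruvate dehydrogenase, was at 1321 and 1316 CPM in GG against 450 and 442 CPM in AG (log2 fold change 1.56 ± 0.20, edgeR adjusted p = 0.0168). GCSH had 16 and 43 counts in GG against 0 in AG, at least 13.2-fold higher in GG against 3 counts over the group, and was no longer called without AG replicate 1 (adjusted p = 0.0587) and with the replicate number as a block (adjusted p = 0.0727). Of 14 other amino acid enzymes tested, 1 was called, lower in GG, or 7.14% against 12.9% of all tested genes. With DESeq2 4 were called higher and 2 lower, where it called 11.3% and 11.9% of all genes it tested. More were also called without AG replicate 2. With the replicate number as a block, OAT (adjusted p = 0.0320) and GOT2 (adjusted p = 0.0295), mitochondrial aminotransferases chosen after their values were seen, were called higher beside the 1 lower. GLUL, which makes glutamine, was at 68.5 and 56.8 CPM in GG against 293 and 196 CPM in AG (log2 fold change -1.97 ± 0.31, adjusted p = 0.0234).

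Of the stress response that acts through ATF4, 13 of 21 listed genes were tested, and 5 were lower in GG, where 6.58% of all tested genes were. The count lower in GG was 9 without a filter on low counts, where 7.45% of all genes were called lower. It was 8 with DESeq2, where 11.9% were. Calls were added without AG replicate 1 and mostly lost without either GG library. ATF4 had no matched identifier and was not analysed here. EIF2AK3, the kinase PERK of the endoplasmic reticulum, was at 3.85 and 4.23 CPM in GG against 25.6 and 34.2 CPM in AG (log2 fold change -2.89 ± 0.40, edgeR adjusted p = 0.0180). EIF2AK4, the kinase that senses uncharged transfer RNA, was chosen after its values were seen and lay the other way at 20.6 and 23.2 CPM in GG against 2.07 and 8.13 CPM in AG and was not called (edgeR adjusted p = 0.100). It was called higher in GG with DESeq2 (adjusted p = 0.0118), with edgeR when low genes were kept (adjusted p = 0.0423) and with edgeR without AG replicate 2 (adjusted p = 0.00580). DDIT3, a transcription factor downstream of ATF4, was higher in AG replicate 1 than in AG replicate 2, at 13.2 and 21.3 CPM in GG against 491 and 325 CPM in AG. ATF3 was at 0.855 and 0.477 CPM in GG against 13.3 and 9.29 CPM in AG, and SESN2 at 9.02 and 12.9 CPM in GG against 73.7 and 115 CPM in AG. The last of the 5, PPP1R15A, chosen after its values were seen, was at 7.55 and 9.92 CPM in GG against 109 and 32.4 CPM in AG.

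Several further genes known as ATF4 targets in human and mouse cells had their highest level in AG replicate 2, as PSAT1 and ASNS did. With the filter on low counts none was called with edgeR over 4 libraries, 3 of the 6 being too low to test. Without that filter edgeR called all 6 lower in GG, at adjusted p of 0.00685 to 0.0291, where 7.45% of all genes were called lower. DESeq2, which called 11.9% of all genes lower, called TRIB3, STC2, ALDH1L2 and SLC1A4. It did not call CHAC1 (DESeq2 adjusted p = 0.177) or FGF21 (DESeq2 adjusted p = 0.189). All 6 were chosen after seeing their values, so these calls follow in part from that choice and add no support. TRIB3, an inhibitor of ATF4, was at 3.23 and 1.02 CPM in GG against 6.84 and 37.6 CPM in AG. CHAC1, which degrades glutathione, was at 1.76 and 0 CPM in GG against 13.1 and 56.8 CPM in AG, and STC2, a secreted glycoprotein, at 0.665 and 0.511 CPM in GG against 2.56 and 24.3 CPM in AG. FGF21, a secreted stress hormone, had 0 counts in both GG libraries against 0 and 126 counts in AG. ALDH1L2, a mitochondrial folate enzyme, had 0 and 1 counts in GG against 5 and 341 counts in AG, and the serine carrier gene SLC1A4 had 1 and 0 counts in GG against 5 and 170 counts in AG. AG replicate 1 was thus at or below 5 counts for the last 3 of these genes, at a depth of 14129608 reads against 19108735 in AG replicate 2.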

How the data were processed

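RNA was measured in 2 GG and 2 AG morula libraries, amplified with a SMARTer low-input kit per the labels' protocols. The authors deposited 1 table of estimated counts per Ensembl gene, unscaled, of which 30.0% to 32.2% in a library were not whole. Trim Galore, STAR 2.6.0c, Salmon 0.12.0 and build rheMac8 are named in the submitters' processing notes, and for annotation and strand setting the entry is: not given in the sources used here. Such counts can divide reads between near-identical or overlapping genes. Symbols matched 14654 of 21314 identifiers (68.8%); each member had 1 identifier.

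Counts were rounded and tested in R 4.3.3 with edgeR 4.0.16 (quasi-likelihood F test on group, filterByExpr with minimum count 10 and total 15, TMM, Benjamini-Hochberg over 13227 genes). Standard errors are those implied by F. The procedure was tested on simulated data. Alternatives were DESeq2 1.42.0, its size factors in edgeR, upper-quartile scaling, 2 other filters, a replicate block, thinning to 14129529 reads and leaving out each library. Members and lists were chosen with earlier results of these data known. Levels in CPM are counts over the TMM-adjusted total of tested genes. All members are given; of each other list, up to 4 called genes with the smallest p are named, and other genes are marked as chosen after their values were seen. Labels name no molecular identifiers, so intervals and floors cover counting error only.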

Additional observations from a re-analysis of the deposited data

How the results depend on the processing

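The 6 calls (MARS1, SARS1, MTHFD2, CTH, MTHFD1 and ALDH18A1) held under DESeq2 size factors, upper-quartile normalization, both other filters, the replicate block, thinning and DESeq2, and without either AG library, at adjusted p of 0.0453 or less; without either GG library all 6 kept their sign and lost the call, at adjusted p of 0.101 to 0.291. Over all genes the 1709 calls (839 higher and 870 lower in GG) became 2609 without a filter on low counts (1360 lower) and 3341 with DESeq2 (1630 higher, 1711 lower); leaving out 1 library gave 69 to 3942 (41 to 2096 higher, 28 to 1846 lower). Member calls became 8 without a filter (6 lower), 10 with DESeq2 (7 lower), which called 23.3% of all genes, and 0 to 15 with 1 library left out (0 to 7 higher, 0 to 13 lower). The median of members was -0.70 to 0.24 with 1 library left out. The replicate block gave 1697 calls over all genes, 7 of them members; the numbers pair no samples by the labels, and same-numbered deviations correlated at 0.099 across genes.

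Signs of uncalled members turned. With the replicate block VARS1 stood at 0.24, MTHFD1L at 0.32 and GOT1 at -0.0046, and after thinning VARS1 stood at 0.024. With 1 library left out, ranges over the 4 fits crossed 0 for CARS1 (-0.38 to 1.92), EPRS1 (-0.49 to 0.43), FARSB (-0.078 to 0.47), GARS1 (-1.97 to 0.77), IARS1 (-0.95 to 0.15), RARS1 (-0.090 to 0.55), TARS1 (-0.16 to 1.18), VARS1 (-0.70 to 1.17), YARS1 (-1.08 to 0.013), PHGDH (-4.41 to 6.45, the upper end against 0 counts), MTHFD1L (-0.95 to 1.67), PYCR1 (-0.79 to 3.51) and GOT1 (-0.51 to 0.44). With 2 libraries a group, genes that differ widely between AG libraries can be called only at large differences.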
